A study of Arabidopsis thaliana with 8 samples.

Results

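The genotype by salt interaction asks, gene by gene, whether the change of a transcript under NaCl was the same in seedlings carrying an *idd4* insertion as in WT. It was computed as the NaCl minus mock difference in the libraries labelled *idd4* minus the NaCl minus mock difference in WT, on log2(value + 1). A positive interaction means that the response of the libraries labelled *idd4* lay above that of WT, and a negative one that it lay below. All 8 libraries of the series enter it, and 19429 of the 27207 genes in the table were tested, namely genes whose values averaged 10 or more across libraries. The genes nearest the limit had means of 10.006 inside it and 9.99 outside it, 4289 further genes were above 0 in some library and 3489 were at 0 in all.

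RNA was sequenced from whole *Arabidopsis thaliana* seedlings of 14 days, moved at day 5 to MS plates with 100 mM NaCl or to the same plates without added salt (mock). The groups were *idd4* NaCl, *idd4* mock, WT NaCl and WT mock, with 2 libraries each, described by the submitters as biological replicates. WT is Col-0, and *idd4* is a single T-DNA insertion line in that background. P-values cover only the spread between these libraries. In whole seedlings a change in the amount of a tissue and a change in RNA per cell cannot be told apart.

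Salt reaches a seedling as an osmotic and an ionic stress. Abscisic acid (ABA) accumulates and relieves the inhibition of SnRK2 kinases by clade A PP2C phosphatases, and dehydration, cold-regulated and lipid transfer genes are then transcribed, while the SOS pathway exports sodium and photosynthesis genes are commonly lowered. IDD4 is a zinc finger transcription factor of the INDETERMINATE DOMAIN family.

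*IDD4* itself (AT2G02080) had 603 and 527 scaled fragments in the *idd4* NaCl libraries and 477 and 436 in the *idd4* mock libraries, against 414 and 428 in WT NaCl and 274 and 360 in WT mock. A scaled fragment is a sequenced fragment multiplied by 1 factor per library, the unit of the deposited table. All 4 libraries labelled *idd4* were above all 4 WT libraries, which goes against a loss of the transcript, so the genotype is given below as the label has it. Were the genotype labels exchanged, the sign of every interaction would turn. Where in the gene the reads lie was not analysed here. The response to NaCl was 0.31 in the libraries labelled *idd4* and 0.42 in WT, and the interaction was -0.12 (SE 0.27, 95% interval -0.72 to 0.49).

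Depth ran between 5882615 fragments in *idd4* NaCl 1 and 13557480 in *idd4* NaCl 2. The 2 libraries of a group correlated at 0.949 for *idd4* NaCl, 0.972 for *idd4* mock, 0.948 for WT NaCl and 0.972 for WT mock over the genes tested, so the salt-treated pairs were the less alike in both genotypes. Both genotypes shared a median response of 0.25 over all genes, which was 0.01 and 0.02 after TMM scaling in the libraries labelled *idd4* and in WT. The median interaction was 0.0001 as deposited and -0.01 after TMM scaling, so scaling bears on the responses given below and hardly on their difference. All 26 photosynthesis genes and 16 of 17 root markers had a mean of at least 10, while 7 of 9 floral and 6 of 7 seed storage markers were below it. *AP1*, a floral gene, and the seed storage genes *CRU2*, *CRU3* and *SESA3* were at 0 in all libraries.

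No gene passed an adjusted p under 0.05 for the interaction (limma, 0 of 19429), and every adjusted p was 1.00. At an unadjusted p under 0.05 there were 49 genes (0.252%) with a positive and 111 (0.571%) with a negative interaction, together 0.824% of those tested. Were no gene to differ, a share near 0.05 of the genes would reach this p, so these counts are no excess. edgeR on the recovered fragments also gave 0 genes at an adjusted p under 0.05, with 54 positive and 134 negative at an unadjusted p under 0.05, and DESeq2 gave 0, with 34 and 62. The surplus of negative interactions depended on single libraries. The positive and negative counts at an unadjusted p under 0.05 were 308 and 301 without *idd4* NaCl 2, 62 and 49 without *idd4* mock 1, 111 and 99 without *idd4* mock 2 and 172 and 145 without WT NaCl 1. Leaving out *idd4* NaCl 1 gave 48 and 192, leaving out WT mock 1 gave 72 and 186, and leaving out WT NaCl 2 gave 106 and 114. The limma fit of all 8 libraries has no term for the replicate number, while differences of library 1 and 2 correlated between groups at 0.06 to 0.48. From this fit the 95% interval of a gene's interaction, which is not adjusted for the number of genes, reached 0.89 on either side at the median. Differences of that size could thus not be told from 0 for a typical gene. Larger ones did not pass the adjusted threshold either. The 5th and 95th percentiles of the interaction were -0.67 and 0.61, and 625 genes reached 1 in size, 273 positive and 352 negative.

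Each genotype gives 4 pairings of a NaCl library with a mock library. In 742 genes (3.82%) all 4 responses of the libraries labelled *idd4* were above all 4 of WT, and in 948 (4.88%) they were all below, together 8.70% of the genes tested. In such genes the sign of the interaction cannot turn when 1 library is left out, so only its size is informative there. Within the replicate numbers, 9556 genes (49.2%) had the same sign in number 1 as in number 2, and the correlation of both interactions across genes was -0.02. Of the genes whose interaction reached 1 in size within both numbers, 157 (0.808%) had the same sign and 197 (1.01%) opposite signs. Over all genes the interactions of both replicate numbers did not track each other. The labels do not say that a number pairs libraries.

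The salt response itself was shared. Across genes the response in the libraries labelled *idd4* and that in WT correlated at 0.83, with no library in common. Differences of library 1 and 2 also correlated between the genotypes, at 0.48 under NaCl and 0.36 in mock. Both responses are therefore not fully independent, and the part of this in the 0.83 was not tested. The response passed an adjusted p under 0.05 (limma) in 622 genes in the libraries labelled *idd4*, 439 higher (2.26%) and 183 lower (0.942%), and in 510 in WT, 389 higher (2.00%) and 121 lower (0.623%). Both lists held 330 genes, 53.1% of those of the libraries labelled *idd4* and 64.7% of those of WT, and all 330 changed in the same direction. Of the 292 genes that passed in the libraries labelled *idd4* alone, 291 moved the same way in WT, 79 had responses that did not overlap and 20 reached an unadjusted p under 0.05 for the interaction. Of the 180 that passed in WT alone, all 180 moved the same way in the libraries labelled *idd4*, 65 did not overlap and 24 reached that p. For none of these genes did the difference between the genotypes itself pass an adjusted p under 0.05 (limma).

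**Figure D1:**
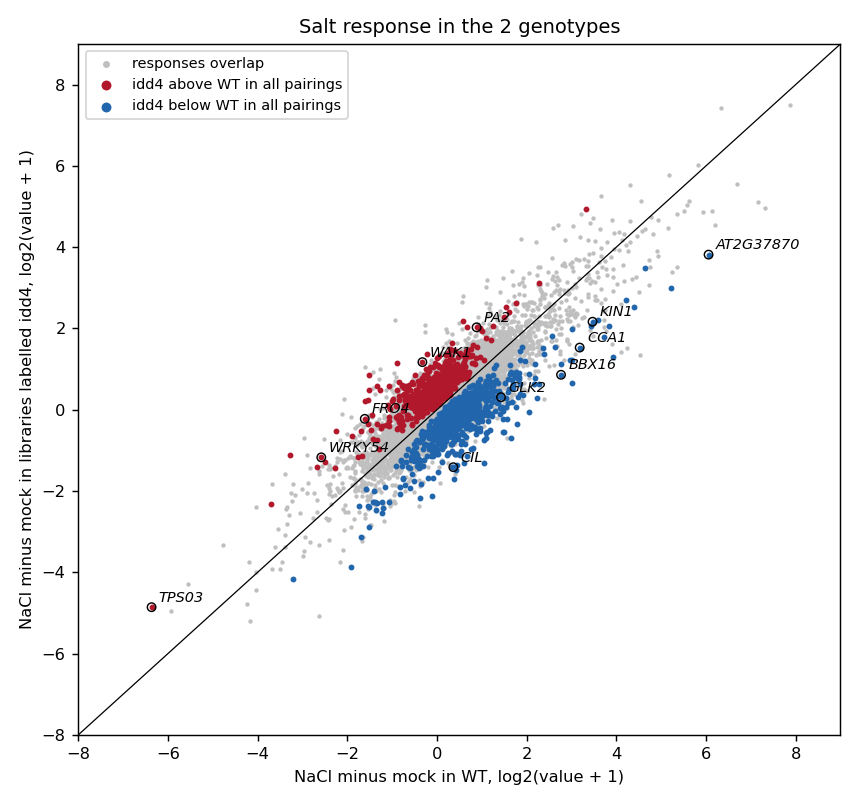
Each point is 1 of the 19429 genes tested, with its NaCl minus mock difference in WT on the x axis and in the libraries labelled idd4 on the y axis, both on log2(value + 1). Red points are the 742 genes whose 4 idd4 responses were all above the 4 WT responses, blue points the 948 that were all below, and the line marks equal responses.

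Among the genes whose responses did not overlap, the 5 with the smallest p in the negative direction were *GLK2*, *CIL*, *LTP6*, AT2G37870 and *CCA1*. GLK2, a GARP transcription factor that switches on nuclear genes for chloroplast proteins, had 920 and 883 scaled fragments in *idd4* NaCl and 790 and 672 in *idd4* mock, against 1340 and 1453 in WT NaCl and 462 and 580 in WT mock. Both WT NaCl libraries were above all others, while the *idd4* NaCl libraries were only a little above their mocks. The response was 0.31 (SE 0.18, adjusted p = 0.33, limma) in the libraries labelled *idd4* and 1.43 (SE 0.18, adjusted p = 0.0081, limma) in WT. The interaction of *GLK2* was -1.12 (SE 0.25, 95% interval -1.69 to -0.55), the smallest unadjusted p of all genes tested in limma, and it ran between -1.28 and -0.96 when any 1 library was left out.

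*CIL*, a CCT motif gene related to the chloroplast import regulator *CIA2*, had 25.1 and 26.4 scaled fragments in *idd4* NaCl and 67.2 and 73.6 in *idd4* mock, against 55.0 and 47.8 in WT NaCl and 34.2 and 45.8 in WT mock. It was lowest under NaCl in the libraries labelled *idd4*, where it fell by 1.41 (adjusted p = 0.045, limma), and its WT response was 0.36. The interaction was -1.78 (SE 0.43, 95% interval -2.75 to -0.81), at a level where 1 library held as few as 14 fragments. The relatives *GLK1* (*GPRI1* in the reference) and *CIA2*, chosen after their values were seen, had interactions of -0.55 (95% interval -1.28 to 0.19) and -0.49 (95% interval -0.97 to -0.01). *CIA2* had 646 and 687 scaled fragments in *idd4* NaCl and 634 and 622 in *idd4* mock, against 1008 and 988 in WT NaCl and 671 and 671 in WT mock.

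CCA1, a MYB factor of the morning part of the circadian clock, had 135 and 171 scaled fragments in *idd4* NaCl and 46.0 and 58.4 in *idd4* mock, against 228 and 231 in WT NaCl and 19.3 and 30.8 in WT mock. It rose in both genotypes, by 1.53 (adjusted p = 0.035, limma) in the libraries labelled *idd4* and by 3.18 (adjusted p = 0.0026, limma) in WT. The libraries labelled *idd4* were higher than WT without salt and lower with it, and the interaction was -1.65 (SE 0.42, 95% interval -2.61 to -0.69). *LHY*, its close partner in the clock, had an interaction of -0.01 (95% interval -1.65 to 1.64) at lower values, between 27.1 and 35.9 in *idd4* NaCl, 8.0 and 17.3 in *idd4* mock, 31.5 and 53.0 in WT NaCl and 11.9 and 20.3 in WT mock. *PRR9*, a repressor of both, had an interaction of -1.07 (95% interval -2.12 to -0.01) and non-overlapping responses, with a WT response of 1.83 (adjusted p = 0.03, limma) and 0.76 (adjusted p = 0.21, limma) in the libraries labelled *idd4*.

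Of the 20 clock genes listed, 14 had a negative interaction, 4 had responses that did not overlap in that direction (*CCA1*, *PRR9*, *CDF1* and *LNK1*) and 1, *ELF3*, in the other. That is 25.0% of the list against 8.70% of all genes, and 2 of the 20 reached an unadjusted p under 0.05, as did 0.824% of all genes. The median interaction of the list was -0.12, -0.13 in either replicate number, and -0.06 without *idd4* NaCl 2. How the harvest times of the groups compare is not given in the sources used here, and its part in these values was not tested.

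*BBX16*, a B-box zinc finger gene, had 82.5 and 87.7 scaled fragments in *idd4* NaCl and 37.4 and 57.6 in *idd4* mock, against 147 and 134 in WT NaCl and 13.9 and 27.9 in WT mock. Its order of groups was that of *CCA1*. The interaction was -1.91 (SE 0.53, 95% interval -3.11 to -0.71), with a rise in WT of 2.77 (adjusted p = 0.012, limma).

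*LTP6* and AT2G37870, both lipid transfer genes, ranked between *CIL* and *CCA1* by p. *LTP6* had 827 and 1150 scaled fragments in *idd4* NaCl and 553 and 502 in *idd4* mock, against 1530 and 1846 in WT NaCl and 411 and 395 in WT mock. Its interaction was -1.17 (SE 0.28, 95% interval -1.81 to -0.53), and the rise in WT was 2.06 (adjusted p = 0.0031, limma). AT2G37870, annotated as a bifunctional inhibitor and lipid-transfer protein, had 508 and 1239 scaled fragments in *idd4* NaCl and 71.0 and 43.2 in *idd4* mock, against 1272 and 1405 in WT NaCl and 19.3 and 18.9 in WT mock. It rose in both genotypes, by 3.82 in the libraries labelled *idd4* and by 6.06 in WT, and the interaction was -2.24 (SE 0.56). It was -1.60 without *idd4* NaCl 1 and -2.88 without *idd4* NaCl 2. The *idd4* mock libraries were both above the WT mock libraries, and the *idd4* NaCl libraries both below those of WT.

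In other genes of this direction the mock libraries differed too. *DAA1*, annotated as a nucleoside triphosphate hydrolase, had 215 and 208 scaled fragments in *idd4* NaCl and 44.1 and 29.6 in *idd4* mock, against 127 and 260 in WT NaCl and 7.49 and 7.96 in WT mock. The salt-treated libraries of both genotypes overlapped, so the interaction of -1.87 (95% interval -3.09 to -0.66) lay in the mocks. AT4G21930, annotated as a senescence regulator, had 30.5 and 45.0 scaled fragments in *idd4* NaCl and 11.5 and 8.8 in *idd4* mock, against 58.0 and 61.9 in WT NaCl and 4.28 and 2.98 in WT mock. *DML3*, a DNA glycosylase that removes methylated cytosine, had 43.1 and 39.6 scaled fragments in *idd4* NaCl and 48.0 and 41.6 in *idd4* mock, against 73.0 and 78.2 in WT NaCl and 34.2 and 22.9 in WT mock. The response of *DML3* was -0.11 in the libraries labelled *idd4* and 1.40 in WT, neither past the threshold. AT5G18840, annotated in the major facilitator superfamily, had an interaction of -1.23.

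The remaining genes of the 15 named by p in this direction had responses of opposite sign in both genotypes. *RLP29*, a receptor-like protein gene, had 12.6 and 20.2 scaled fragments in *idd4* NaCl and 38.4 and 34.4 in *idd4* mock, against 42.0 and 45.6 in WT NaCl and 26.8 and 27.9 in WT mock. The interaction was -1.80 (95% interval -2.97 to -0.63). *WTF9*, AT1G60700, AT3G09162 and AT3G52360 had interactions of -1.69, -1.24, -1.17 and -0.97. Their responses were between -0.56 and -0.44 in the libraries labelled *idd4* and between 0.41 and 1.19 in WT, and no single response passed the threshold.

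**Figure D2:**
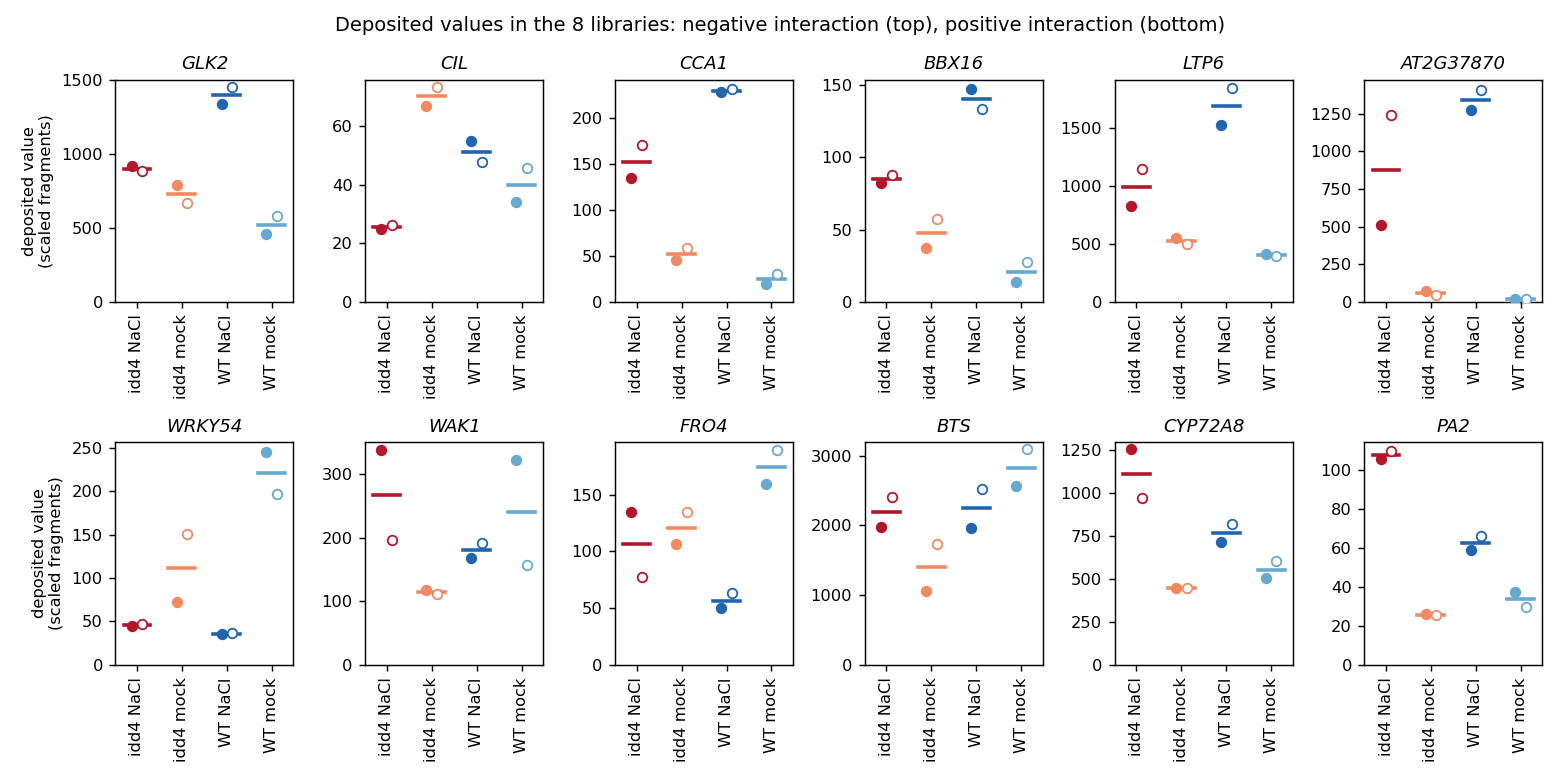
Deposited values (scaled fragments, linear axis from 0) of 12 genes in the 8 libraries. Filled points are replicate 1, open points replicate 2 and bars the mean of a group, with the negative interactions in the upper row, where GLK2 is highest in WT NaCl, and the positive ones in the lower row, where WRKY54 is highest in WT mock.

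Among genes with a positive interaction, those with the smallest p included *BTS* of the iron deficiency list and genes of salicylate and the cell wall. AT1G23720, a proline-rich extensin-like gene, had the smallest p. It had 2511 and 2678 scaled fragments in *idd4* NaCl and 1951 and 1643 in *idd4* mock, against 1632 and 1244 in WT NaCl and 1904 and 2993 in WT mock. The libraries labelled *idd4* were higher with salt than without and the WT libraries lower, and the interaction was 1.28 (SE 0.34, 95% interval 0.49 to 2.06). It was 0.59 in replicate number 1 and 1.97 in number 2. Extensins of this kind are repetitive and similar to each other, and how shared reads were counted is not stated.

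*WRKY54*, which with *WRKY70* restrains salicylate synthesis, had 44.8 and 47.3 scaled fragments in *idd4* NaCl and 72.9 and 151 in *idd4* mock, against 35.0 and 36.9 in WT NaCl and 246 and 197 in WT mock. The salt-treated libraries were alike and the WT mocks the highest. *WRKY54* fell by 2.58 in WT (adjusted p = 0.012, limma), and its response in the libraries labelled *idd4* was -1.17 (adjusted p = 0.11, limma). The interaction was 1.41 (SE 0.49, 95% interval 0.29 to 2.53). *WRKY70* fell by 3.01 in WT (adjusted p = 0.016, limma), with -1.95 in the libraries labelled *idd4* (adjusted p = 0.058, limma) and an interaction of 1.07 (95% interval -0.41 to 2.54) that was 1.97 in replicate number 1 and 0.16 in number 2.

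*UGT74F2*, whose product glucosylates salicylate, had 3191 and 3678 scaled fragments in *idd4* NaCl and 1062 and 944 in *idd4* mock, against 2198 and 2621 in WT NaCl and 1082 and 1181 in WT mock. It rose in both genotypes, by 1.77 (adjusted p = 0.0038, limma) in the libraries labelled *idd4* and by 1.09 (adjusted p = 0.019, limma) in WT, an interaction of 0.69 (95% interval 0.13 to 1.25). Of the 21 salicylate and immunity genes tested, 16 had a positive interaction, at a median of 0.45, which was 0.56 in replicate number 1 and 0.14 in number 2. It was 0.11 without *idd4* NaCl 1, with 11 of 21 positive, 0.12 without WT NaCl 2 and 0.70 without *idd4* NaCl 2. Responses did not overlap for 3 in the positive and 2 in the negative direction, 23.8% of the list against 8.70% of all genes. The 2 negative ones were *ICS1*, the salicylate synthesis gene (-0.91, 95% interval -1.86 to 0.03), and *PR5* (-0.87, 95% interval -1.77 to 0.03). *PR5* fell in both genotypes, by 2.40 in the libraries labelled *idd4* and by 1.52 in WT.

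In iron deficiency the IMA peptides and the Ib basic helix-loop-helix factors raise the uptake genes *IRT1* and *FRO2*, and BTS, an E3 ligase that binds iron, holds the response down. *BTS* had 1982 and 2414 scaled fragments in *idd4* NaCl and 1064 and 1736 in *idd4* mock, against 1967 and 2528 in WT NaCl and 2571 and 3092 in WT mock. The salt-treated libraries overlapped and the mocks of the libraries labelled *idd4* were the lower. The interaction was 1.02 (SE 0.37, 95% interval 0.19 to 1.86), with responses of 0.69 and -0.34 in the libraries labelled *idd4* and in WT that did not pass alone.

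*BHLH100*, a Ib factor, had 62.8 and 161 scaled fragments in *idd4* NaCl and 36.5 and 75.2 in *idd4* mock, against 72.0 and 222 in WT NaCl and 214 and 538 in WT mock. In every group the second library was the higher by more than 2-fold. Its interaction was 2.35 (95% interval 0.18 to 4.51), and 2.33 and 2.37 within replicate numbers 1 and 2. *FRO4*, a metal reductase gene that is not on the iron deficiency list, had 135 and 77.6 scaled fragments in *idd4* NaCl and 106 and 134 in *idd4* mock, against 50 and 63.0 in WT NaCl and 159 and 189 in WT mock. Its interaction was 1.39 (95% interval 0.39 to 2.38). The neighbouring *FRO5*, a close copy named after its values were seen, had 1.1 (95% interval -0.95 to 3.14), and how reads shared by both were counted is not stated.

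Of the 25 iron deficiency genes tested, 20 had a positive interaction, with a median of 0.81 against 0.0001 for all genes. The same 25 had a median response of 0.69 in the libraries labelled *idd4* and 0.01 in WT, read against 0.25 for all genes, and 0 passed a response test in either genotype. The list's median was 1.14 in replicate number 1 and 0.31 in number 2. Responses did not overlap for 3 of 25 genes (12%, *BTS*, *PYE* and *ZIF1*), against 8.70% of all genes. An unadjusted p under 0.05 was reached by 2 of 25, and by 0.824% of all genes.

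The iron values depended on single libraries. The peptide gene *IMA3* had 431 and 1296 scaled fragments in *idd4* NaCl and 42.2 and 821 in *idd4* mock, against 773 and 2401 in WT NaCl and 1248 and 1112 in WT mock. *IMA1* was at 10.6 and *IMA2* at 6.72 in the same library, *idd4* mock 1, their lowest values. In that library *FER1*, which encodes the iron store ferritin, was at its highest, with 2511 and 804 scaled fragments in *idd4* NaCl and 6246 and 952 in *idd4* mock, against 1650 and 830 in WT NaCl and 418 and 1334 in WT mock. Of the 9 ferritin and iron storage genes tested, 7 had a negative interaction, at a median of -0.67, but the median was -1.03 in replicate number 1 and 0.55 in number 2. Without *idd4* mock 1 the median of the iron deficiency list was 0.50 and that of the storage list -0.001. Without WT NaCl 1 the medians were -0.06 and -0.03, and without *idd4* NaCl 2 they were 0.35 and -0.15. Without *idd4* NaCl 1 they were 1.303 and -1.12, and without WT NaCl 2 they were 1.46 and -0.97.

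*OPT3*, a phloem iron transporter gene, had 1857 and 3504 scaled fragments in *idd4* NaCl and 560 and 1919 in *idd4* mock, against 2050 and 2687 in WT NaCl and 2452 and 2227 in WT mock, again lowest in *idd4* mock 1. The uptake genes *IRT1* and *FRO2* had interactions of 0.73 (95% interval -0.98 to 2.43) and 0.95 (95% interval -1.19 to 3.09). Both intervals hold 0 and effects of more than 2 on the log2 scale.

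**Figure D3:**
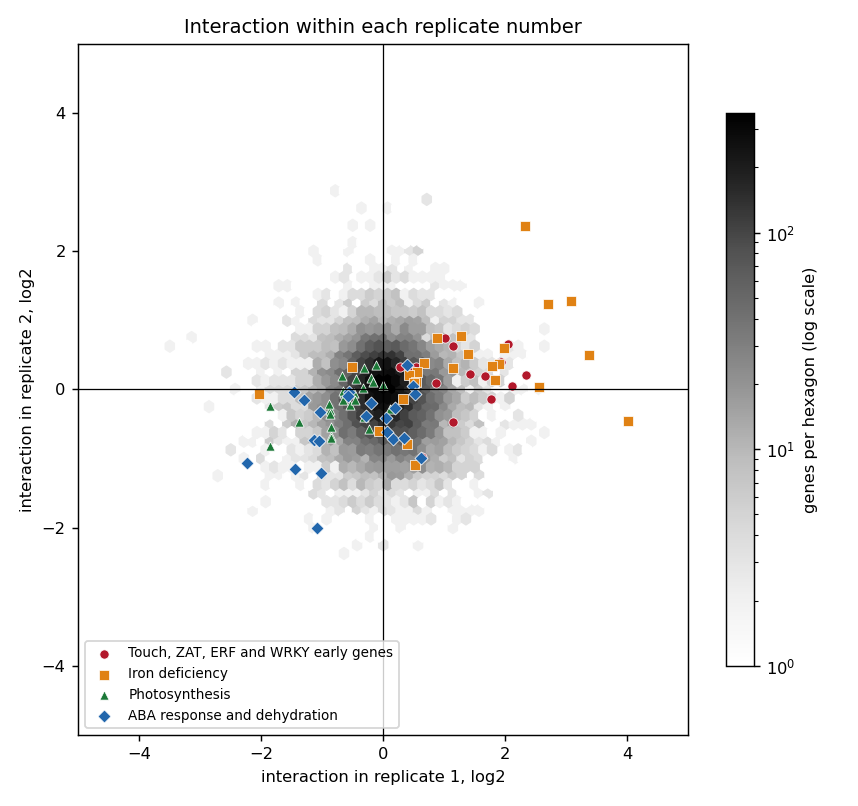
The interaction within replicate number 1 (x axis) and number 2 (y axis), both on the log2 scale, for the 19429 genes tested (grey hexagons, darker for more genes) and for the members of 4 lists (coloured). The touch and iron genes spread along the x axis, while the cloud of all genes is round, with a correlation of -0.02.

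The early genes of touch and wounding, which respond within minutes to handling in seedlings of this species, showed the widest gap between the median responses of any list. Of 17 such genes (calmodulin-like TCH genes, ZAT zinc fingers, ERF and WRKY factors), 16 had a positive interaction and the median was 0.88. Their median response was -0.07 in the libraries labelled *idd4* and -1.01 in WT, and 0 of 17 passed the response test in either genotype. *ZAT6* was the only one of the 17 with non-overlapping responses (5.88%, against 8.70% of all genes), at 796 and 374 scaled fragments in *idd4* NaCl and 475 and 748 in *idd4* mock, against 248 and 277 in WT NaCl and 602 and 855 in WT mock. Its interaction was 1.32 (95% interval 0.16 to 2.49).

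The spread of these genes between libraries of one group was as large as the difference. *ZAT10* had 1794 and 448 scaled fragments in *idd4* NaCl and 635 and 2088 in *idd4* mock, against 854 and 294 in WT NaCl and 1250 and 2165 in WT mock. The median interaction of the list was 1.42 in replicate number 1 and 0.26 in number 2. Without *idd4* NaCl 1, the library of lowest depth, it was -0.10, with 8 of 17 genes positive. Without *idd4* NaCl 2 it was 1.68, without WT NaCl 1 1.45 and without WT NaCl 2 0.34.

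Of the genes whose response passed in either genotype, AT3G02480, annotated as a late embryogenesis abundant protein, had the largest interaction, -3.19 (SE 1.23, 95% interval -5.99 to -0.38). It had 160 and 313 scaled fragments in *idd4* NaCl and 211 and 36 in *idd4* mock, against 176 and 438 in WT NaCl and 5.35 and 21.9 in WT mock, so *idd4* mock 1 stood at the level of the salt-treated libraries. *CRK4*, a receptor-like kinase gene, had 0 and 6.21 scaled fragments in *idd4* NaCl and 62.4 and 128 in *idd4* mock, against 8.0 and 20.6 in WT NaCl and 61.0 and 118 in WT mock. Its fall passed in the libraries labelled *idd4* (adjusted p = 0.027, limma) and not in WT (adjusted p = 0.15, limma), with an interaction of -2.45 whose 95% interval ran from -5.33 to 0.43. *NUDT24*, a nudix hydrolase gene, had 161 and 697 scaled fragments in *idd4* NaCl and 10.6 and 7.2 in *idd4* mock, against 117 and 1445 in WT NaCl and 1.07 and 2.98 in WT mock. Its interaction of -2.06 (SE 1.52) was -2.02 and -2.09 within replicate numbers 1 and 2, while the replicates of a salt-treated group differed by more than 4-fold. AT2G35070 had an interaction of -2.24 (95% interval -4.57 to 0.09), with both WT mock libraries at 0.

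In the positive direction the 6 largest were those of AT4G11170, AT1G15125, *BCAT-2*, *UGT73C2*, *TPS03* and *WRKY54*. AT4G11170, a disease resistance gene, had 52.0 and 23.3 scaled fragments in *idd4* NaCl and 0 and 3.2 in *idd4* mock, against 27.0 and 15.2 in WT NaCl and 3.21 and 3.98 in WT mock, an interaction of 1.91 (95% interval -0.67 to 4.49). *UGT73C2* was at 0 in both *idd4* mock libraries and *BCAT-2*, a branched-chain aminotransferase gene, under 10 scaled fragments in all mocks, with interactions of 1.61 and 1.76 whose intervals held 0. *TPS03*, a terpene synthase gene, had 10.8 and 10.08 scaled fragments in *idd4* NaCl and 296 and 369 in *idd4* mock, against 5.00 and 1.09 in WT NaCl and 230 and 368 in WT mock. It fell by 4.86 in the libraries labelled *idd4* (adjusted p = 0.0043, limma) and fell by 6.37 in WT (adjusted p = 0.0014, limma), and the interaction of 1.51 (95% interval -0.08 to 3.1) rests on 1 to 5 fragments in the WT NaCl libraries. AT1G15125, a methyltransferase gene, had an interaction of 1.84 (95% interval -0.04 to 3.72).

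Of the other positive genes named by p, *CYP72A8*, *PA2* and AT3G60420 rose in the libraries labelled *idd4*, and their WT responses of 0.47, 0.88 and 0.34 did not pass. *CYP72A8*, a cytochrome P450 gene, had 1252 and 970 scaled fragments in *idd4* NaCl and 443 and 449 in *idd4* mock, against 713 and 820 in WT NaCl and 505 and 602 in WT mock. The interaction was 0.83 (95% interval 0.22 to 1.44), 1.00 and 0.66 within the replicate numbers. *PA2*, a secreted peroxidase gene, had 106 and 110 scaled fragments in *idd4* NaCl and 25.9 and 25.6 in *idd4* mock, against 59.0 and 66.2 in WT NaCl and 37.5 and 29.8 in WT mock. Replicates of *PA2* differed little, and its interaction was 1.14 (95% interval 0.23 to 2.05).

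AT4G18205, AT2G16380, AT3G05920, AT4G25090 and *IQD19* fell in WT, with responses between -1.70 and -1.07 that passed the test, and did not pass in the libraries labelled *idd4*. Their interactions were between 0.81 and 1.18. *WAK1*, a receptor kinase gene of the cell wall, had 339 and 196 scaled fragments in *idd4* NaCl and 117 and 111 in *idd4* mock, against 168 and 192 in WT NaCl and 323 and 157 in WT mock. Its interaction of 1.5 was 2.47 in replicate number 1 and 0.53 in number 2, and the adjoining relative *WAK2*, chosen after its values were seen, had 0.18 (95% interval -0.36 to 0.72). AT4G03610, annotated as a metallo-hydrolase, had 55.6 and 55.8 scaled fragments in *idd4* NaCl and 43.2 and 41.6 in *idd4* mock, against 43.0 and 41.3 in WT NaCl and 70.6 and 71.6 in WT mock. Its replicates were the closest of these genes, and the interaction of 1.13 (95% interval 0.28 to 1.98) was between 1.1 and 1.16 with any 1 library left out. *ORG1* had an interaction of 1.34 (95% interval 0.21 to 2.47). *UBC16*, a ubiquitin-conjugating enzyme gene at 4.00 to 26.8 scaled fragments, had 2.37 (95% interval 0.40 to 4.35).

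Of 22 ABA response and dehydration genes tested, 19 had a negative interaction, at a median of -0.32, with a median response of 1.27 in the libraries labelled *idd4* and 1.83 in WT. In either genotype 3 of them passed the response test, all higher, and 0 of 22 had responses that did not overlap, against 8.70% of all genes. An unadjusted p under 0.05 for the interaction was reached by 0 of 22. RAB18, a dehydrin, had 4486 and 2029 scaled fragments in *idd4* NaCl and 4020 and 603 in *idd4* mock, against 671 and 1836 in WT NaCl and 220 and 245 in WT mock. The *idd4* mock libraries were both above the WT mocks, by a wide margin in the first. The interaction of *RAB18* was -1.30 (95% interval -3.89 to 1.29), and *RD29B* (-0.93), *TSPO* (-1.65) and *LTP3* (-1.12) had the same order of mock libraries. The median of the list was -0.97 without *idd4* NaCl 1 and 0.19 without *idd4* NaCl 2.

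The clade A PP2C genes, which ABA raises and which hold ABA signalling back, had 8 of 8 negative interactions at a median of -0.36. An unadjusted p under 0.05 for the interaction was reached by 0 of 8. *HAI2* led them with 178 and 147 scaled fragments in *idd4* NaCl and 89.2 and 19.2 in *idd4* mock, against 115 and 197 in WT NaCl and 12.8 and 7.96 in WT mock, an interaction of -1.84 (95% interval -3.86 to 0.18). *ABI1* had -0.08 (95% interval -0.73 to 0.58). *HAI3* was the only one with non-overlapping responses (12.5%, against 8.70% of all genes). It had 30.5 and 10.9 scaled fragments in *idd4* NaCl and 3.84 and 4.00 in *idd4* mock, against 18.0 and 13.0 in WT NaCl and 1.07 and 0.99 in WT mock. Its interaction was -1.03 (95% interval -3.23 to 1.16), at a level where 1 library held as few as 1 fragment. Without *idd4* NaCl 2 the median of the 8 was 0.17.

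Of 12 cold-regulated COR and CBF genes, 11 had a negative interaction, at a median of -0.41, but the medians were 0.11 in replicate number 1 and -0.87 in number 2. The list was not raised by salt as a whole. Its median response was -0.25 in the libraries labelled *idd4* and -0.14 in WT, with 4 and 5 of the 12 above 0. Without WT NaCl 2 the median was 0.12, without WT NaCl 1 -1.09 and without *idd4* NaCl 1 -0.23. *KIN1* had 603 and 1182 scaled fragments in *idd4* NaCl and 182 and 193 in *idd4* mock, against 827 and 1541 in WT NaCl and 99.5 and 102 in WT mock. It rose in both genotypes, by 2.17 in the libraries labelled *idd4* and by 3.47 in WT, and the interaction of -1.30 (95% interval -2.44 to -0.17) was -1.32 and -1.29 within the replicate numbers. Its near-identical neighbour *KIN2* had -0.73 (95% interval -1.88 to 0.42), and how shared reads were counted is not stated. *KIN1* was the only one of the 12 with non-overlapping responses (8.33%, against 8.70% of all genes).

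The median response of 26 photosynthesis genes was -0.96 in the libraries labelled *idd4* and -0.65 in WT, and 3 passed the response test in the libraries labelled *idd4* and 1 in WT, all lower. Of the 26, 24 had a negative interaction, at a median of -0.35, and 4 (15.4%, against 8.70% of all genes) did not overlap. An unadjusted p under 0.05 for the interaction was reached by 0 of 26. LHCA1, an antenna protein of photosystem I, had 14968 and 20124 scaled fragments in *idd4* NaCl and 43378 and 48650 in *idd4* mock, against 22119 and 28566 in WT NaCl and 35413 and 43436 in WT mock. Its interaction was -0.76 (95% interval -1.71 to 0.18) and that of *LHCA4* -0.78 (95% interval -1.70 to 0.14).

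The summed values of the 26 photosynthesis genes were 514641 and 891673 in *idd4* NaCl and between 1185110 and 1523970 in *idd4* mock, against 735417 to 830153 in WT NaCl and 1206890 to 1331360 in WT mock. The lowest sum was that of *idd4* NaCl 1, and without that library the median interaction was -0.04, with 12 of 26 positive. The sums of 17 root markers were between 9896 and 19689 in *idd4* NaCl, 11899 and 15599 in *idd4* mock, 10583 and 15432 in WT NaCl and 13935 and 16178 in WT mock. Their ranges overlapped between genotypes under both conditions, and 10 of the 16 root markers tested had a positive interaction. The part of tissue shares in the results was not tested.

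**Figure D4:**
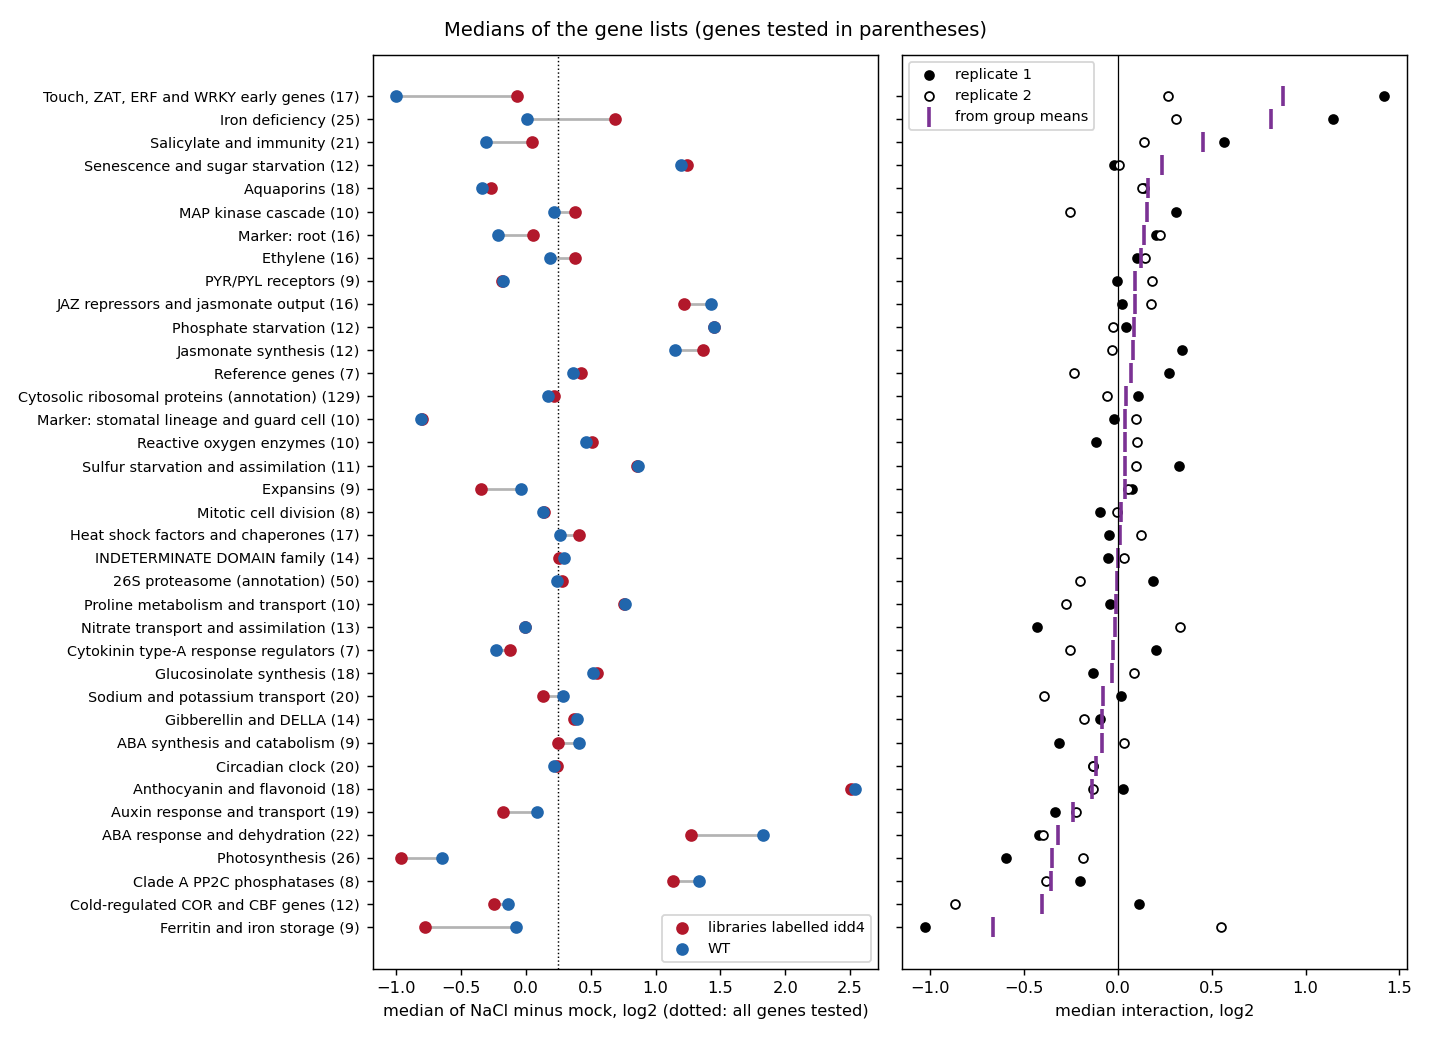
Left, the median NaCl minus mock difference (log2) of each list by function with at least 7 genes tested, in the libraries labelled idd4 (red) and in WT (blue), with the median of all genes tested, 0.25, dotted. Right, the median interaction of the same lists within replicate number 1 (filled), within number 2 (open) and from the group means (bar). The early touch genes, at 0.88, and the iron deficiency genes, at 0.81, stand at the top of the lists drawn. The terpene and leaf volatile list, with 4 genes tested, was at 0.86 and is not drawn.

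**Figure D5:**
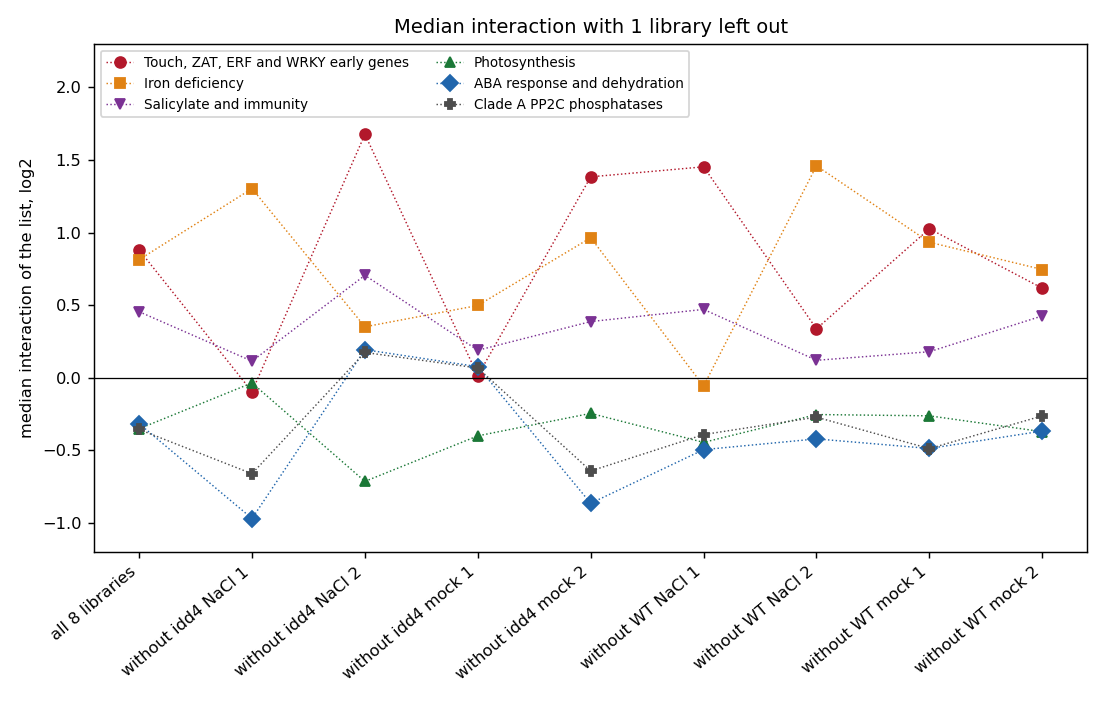
The median interaction (log2) of 6 lists from all 8 libraries and with each library left out in turn. The lines join the same list and carry no order. Leaving out idd4 NaCl 1 takes the touch genes to -0.10, and leaving out WT NaCl 1 takes the iron deficiency genes to -0.06.

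Genes that the study discusses were also followed. Of the 20 such genes tested, 10 had a positive and 10 a negative interaction, at a median of -0.03 that was 0.11 without *idd4* NaCl 2 and -0.21 without *idd4* NaCl 1, and only *SOS3* had non-overlapping responses (5.00%, against 8.70% of all genes). SOS3, a calcium sensor of the sodium export pathway, had 52.0 and 31.0 scaled fragments in *idd4* NaCl and 33.6 and 32.0 in *idd4* mock, against 59.0 and 59.7 in WT NaCl and 28.9 and 34.8 in WT mock, an interaction of -0.60 (95% interval -1.71 to 0.51). The antiporter gene *SOS1*, listed among the ion transporters, had 0.16 (95% interval -0.74 to 1.06). *HB7*, a homeodomain gene of the ABA response, rose in both genotypes, by 1.78 in the libraries labelled *idd4* and by 2.06 in WT, and its interaction was -0.28 (95% interval -1.40 to 0.85). The NAC factor genes *RD26* and *NAC019* had interactions of -0.30 and -0.72, and the interval of *NAC019* ran from -5.32 to 3.87.

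Among 20 sodium and potassium transport genes, the endosomal antiporters *NHX5* and *NHX6* had non-overlapping responses beside *SOS3* (15%, against 8.70% of all genes). *NHX5* had 77.1 and 83.0 scaled fragments in *idd4* NaCl and 112 and 113 in *idd4* mock, against 118 and 170 in WT NaCl and 119 and 102 in WT mock, and an interaction of -0.85 (95% interval -1.65 to -0.04). *NHX6* had -0.86 (95% interval -1.87 to 0.14). The high-affinity potassium transporter gene *HAK5* had -1.02 (95% interval -2.38 to 0.33).

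Of 50 salt-related genes that the study lists as bound by IDD4, 32 had a positive interaction at a median of 0.12, 0 reached an unadjusted p under 0.05 and 5 had non-overlapping responses, where 8.70% of all genes did. The median was -0.10 without *idd4* NaCl 1, with 15 of 50 positive, and 0.29 without *idd4* NaCl 2. *GDH2*, a glutamate dehydrogenase gene, had the smallest p of them, with an interaction of 0.65 (95% interval -0.04 to 1.34). It rose by 1.02 in the libraries labelled *idd4* (adjusted p = 0.043, limma), with 0.37 in WT (adjusted p = 0.34, limma). The gene clusters that the study formed on these same libraries are no independent measure. Their median interactions were 0.40 (cluster 1, 87 genes), 0.24 (cluster 3, 129 genes), 0.79 (cluster 8, 34 genes) and -0.73 (cluster 14, 30 genes). Cluster 1 was at 0.95 in replicate number 1 and -0.03 in number 2, while cluster 8 was at 0.71 and 0.73. Cluster 3 was at -0.50 without *idd4* NaCl 1 and 0.90 without *idd4* NaCl 2, and cluster 1 at 0.04 without WT mock 1. Cluster 8 was at 0.38 without *idd4* NaCl 1 and 1.44 without *idd4* NaCl 2, and cluster 14 ran between -1.02 and -0.57 with any 1 library left out.

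The promoters of the 30 genes named by p were read from TAIR10.1, over 250 bases before the annotated start, to set the sequence beside the response. Searched on both strands were AGACAA, a core bound by IDD proteins, ACGTG, the core of the ABA-responsive element, and CACGTG, the G-box, which holds ACGTG on either strand. AGACAA was in 5 of 15 promoters of genes with a positive interaction and 2 of 15 with a negative one, against 19.3% of the promoters of all genes tested. ACGTG was in 3 of 15 and 5 of 15, against 24%, and CACGTG in 1 of 15 and 1 of 15, against 7.34%. Both promoters with a G-box are shown, with 1 that holds AGACAA, since the values of these genes are given above. Capitals mark the motifs.
CCA1 (chr2:19245341-19245590, plus strand): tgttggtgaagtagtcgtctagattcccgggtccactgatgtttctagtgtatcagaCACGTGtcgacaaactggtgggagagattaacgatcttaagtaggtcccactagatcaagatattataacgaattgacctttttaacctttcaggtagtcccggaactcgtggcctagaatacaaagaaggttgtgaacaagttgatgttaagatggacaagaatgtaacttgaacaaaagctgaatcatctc
BTS (chr3:6273716-6273965, plus strand): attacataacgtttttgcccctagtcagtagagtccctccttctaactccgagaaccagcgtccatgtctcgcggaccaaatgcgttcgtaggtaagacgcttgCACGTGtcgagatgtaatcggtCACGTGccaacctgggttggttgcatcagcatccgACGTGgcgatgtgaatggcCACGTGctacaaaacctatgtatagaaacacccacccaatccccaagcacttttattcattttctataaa
FRO4 (chr5:8101331-8101580, minus strand): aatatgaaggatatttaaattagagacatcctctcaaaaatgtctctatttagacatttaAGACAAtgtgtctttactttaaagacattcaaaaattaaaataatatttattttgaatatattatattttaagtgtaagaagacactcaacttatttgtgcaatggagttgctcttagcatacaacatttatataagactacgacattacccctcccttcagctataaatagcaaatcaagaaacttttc
The *BTS* promoter holds 3 G-boxes and that of *CCA1* 1, and the interactions of these genes had opposite signs, 1.02 and -1.65. *FRO4* holds AGACAA 1 time. The promoters of *GLK2*, *CIL*, *LTP6* and *DAA1* held none of these letters in this window.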

How the data were processed

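RNA of 8 libraries was analysed, 2 per group, grouped by the labels. The authors sequenced paired-end reads, used FastQC and Trimmomatic 0.32, mapped to TAIR10 by TopHat and ran Cufflinks and cuffdiff. The table deposited by the authors holds a scaled signal for each gene. This is the count of fragments times a factor that is constant within a library, with no division by length, so genes are not compared with each other in level. Per library, at least 99.9% of values were whole multiples of one step (within 0.05 of a whole number), from which fragments were recovered.

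From these values, log2(value + 1) for genes averaging 10 or more was fitted with limma 3.58.1 in R 4.3.3 (1 mean per group, moderated variances with a trend, two-sided p, Benjamini-Hochberg over all genes tested). "Rose" and "fell" are used only of responses past an adjusted p of 0.05. Alternatives were other minimum means, pseudocounts, scalings and variance settings, a replicate block, edgeR 4.0.16 and DESeq2 1.42.0 on recovered fragments, and each library left out. The fit was also run on simulated counts, drawn independently for each library. These lack the correlation of replicate differences seen in the data, and no result above rests on them. The members, lists and rules were chosen with earlier results of these data known. Named were *IDD4*, the 15 genes per direction with the smallest p among those with non-overlapping responses, the 6 per direction with the largest interaction among salt-responding genes, the 6 per direction with responses of opposite sign, genes the study discusses and up to 3 members per list. *GLK1*, *CIA2*, *LHY*, *LNK1*, *FRO5*, *WAK2*, *SOS1*, *PYE*, *IMA1*, *IMA2*, *IMA3*, *OPT3*, *IRT1*, *FRO2*, *ZAT10*, *WRKY70*, *TSPO*, *RAB18* and *RD29B* were added after their values were seen. Ribosomal and proteasome lists were taken from the annotation. Of 27207 identifiers, 26558 matched TAIR10.1. Study clusters were formed on these libraries.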

Additional observations from a re-analysis of the deposited data

Results flagged for a closer look

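In 185 of the 19429 genes tested (0.952%) every pairing of a NaCl with a mock library moved one way in the libraries labelled *idd4* and the other way in WT. In 66 genes (0.340%) it was up in the libraries labelled *idd4* and down in WT, and in 119 (0.612%) the reverse. Of the genes named above, 10 belong to them. With the libraries labelled *idd4* up and WT down, the interactions were 1.28 for AT1G23720, 1.13 for AT4G03610, 1.02 for *BTS* and 2.37 for *UBC16*. With the libraries labelled *idd4* down and WT up, they were -1.78 for *CIL*, -1.80 for *RLP29*, -1.17 for AT3G09162, -1.24 for AT1G60700, -0.97 for AT3G52360 and -1.69 for *WTF9*. The difference itself had an adjusted p of 1.00 for each of the 10 (limma). *UBC16*, *RLP29*, *WTF9*, *CIL*, AT4G03610 and AT1G60700 were at under 80 scaled fragments in every library. Up and down were read from 0 on the deposited values, where the median response was 0.25 in both genotypes. After TMM scaling that median was 0.01 in the libraries labelled *idd4* and 0.02 in WT. Calls on scaled values are not given here. Some margins were narrow, as for AT3G52360 with 310 scaled fragments in WT NaCl 1 and 308 in WT mock 2.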

How the results depend on the processing

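The count of genes at an adjusted p under 0.05 was 0 under all 21 alternatives. At an unadjusted p under 0.05, the counts with a positive and with a negative interaction were 110 and 193 with no minimum value, 93 and 199 with no variance trend, 111 and 227 with the replicate block, 76 positive with quantile normalization and 62 negative with DESeq2. With 1 library left out they ran between 48 and 308 positive and between 49 and 301 negative, the highest of both without *idd4* NaCl 2. The lone library of an arm is there assumed to vary like the other groups. Non-overlapping responses then numbered between 1615 and 3369 positive and between 1598 and 3133 negative, where fewer pairings remain to overlap. The same sign held in 8.70% of genes when all 16 pairings of both genotypes, not the replicate numbers, had to share it, and in 47.1% to 49.3% under other values or scalings. Of 89 single genes, 13 turned sign when some 1 library was left out, all with intervals that hold 0. Their ranges were -0.31 to 0.081 for *IDD4*, -0.70 to 0.14 for *HB7*, -1.01 to 0.41 for *RD26*, -2.82 to 1.37 for *NAC019*, -0.35 to 0.19 for *ABI1*, -0.12 to 0.43 for *SOS1*, -0.35 to 3.90 for *IMA3*, -0.17 to 2.07 for *FRO2*, -0.15 to 1.60 for *IRT1*, -3.35 to 0.045 for *TSPO*, -2.67 to 0.069 for *RAB18*, -2.38 to 0.52 for *RD29B* and -0.52 to 0.51 for *LHY*. *LHY* was at 0.006 with a pseudocount of 0.5 and at 0.041 with quantile normalization. The other single genes kept their direction under all alternatives run that tested them. Many of them were named for non-overlapping responses, and for those the sign with 1 library left out was fixed by that choice. Of 986 medians of lists under an alternative, 199 moved by more than the spread between replicate numbers. The labels do not tie a replicate number to a shared culture or day. Differences of library 1 and 2 correlated between groups at 0.06 to 0.48, and the block gave a smallest adjusted p of 0.83 (limma). The interval of a typical gene limits what could be seen. The part of the low depth of *idd4* NaCl 1 in these values was not tested.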

Other observations

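Over all genes tested, 2.26% passed the response test as higher in the libraries labelled *idd4* and 2.00% in WT. Several gene groups held larger shares. Of 18 anthocyanin and flavonoid genes, 10 rose in the libraries labelled *idd4* and 9 in WT, with median responses of 2.50 and 2.54 and a median interaction of -0.14, which was -0.32 without WT NaCl 1 and 0.06 without *idd4* mock 2. *LDOX*, an anthocyanin synthesis gene, had 2400 and 3643 scaled fragments in *idd4* NaCl and 110 and 160 in *idd4* mock, against 2652 and 4451 in WT NaCl and 78.1 and 118 in WT mock, and an interaction of -0.68 (95% interval -1.75 to 0.39). For *DFR*, the enzyme before it in the pathway, the interaction was -0.63 (95% interval -2.07 to 0.81). Of 12 phosphate starvation genes, 5 rose in the libraries labelled *idd4* and 5 in WT, with a median response of 1.45 in either. The median interaction of these 12 was 0.09, but -0.31 without *idd4* NaCl 1 and 0.41 without *idd4* NaCl 2. Of 12 jasmonate synthesis genes, 6 rose in each, with medians of 1.36 in the libraries labelled *idd4* and 1.15 in WT. Their median interaction was 0.08, but -0.14 without *idd4* NaCl 1 and 0.53 without *idd4* NaCl 2. These medians do not show that the responses were equal.

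Of 19 auxin genes tested, 0 reached an unadjusted p under 0.05 for the interaction and 0 passed the response test in either genotype. Of these 19, 15 had a negative interaction, at a median of -0.24 that was -0.34 in replicate number 1 and -0.22 in number 2. Responses did not overlap for 5 of 19 (26.3%, against 8.70% of all genes), all negative. Among them were the auxin response repressors *IAA3*, at -0.65 (95% interval -1.43 to 0.12), and *IAA14*, at -0.66 (95% interval -1.40 to 0.09). Leaving out any 1 library gave medians of this list between -0.32, without WT mock 2, and -0.09, without WT mock 1. The 14 genes of the INDETERMINATE DOMAIN family tested had a median interaction of 0.0006, with 7 positive, and between -0.14 and 0.10 with 1 library left out. The median was -0.01 for 50 proteasome genes, between -0.21 and 0.14 with 1 library left out. For 129 ribosomal protein genes it was 0.04, between -0.13 and 0.25 with 1 library left out.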
